A study of Mus musculus with 119 samples.

Results

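RSKi47, an inhibitor of the p90 ribosomal S6 kinases (RSKs), was compared with no inhibitor in LPS-stimulated bone marrow-derived macrophages (BMDMs) at 0.5 h of LPS. The comparison held 9 of the 119 RNA-seq libraries of the series, chosen by their labels, namely RSKi47 replicates 1 to 3 and WT replicates 4 to 9. All 9 came from WT mice of the strain C57BL/6(NIMR), and all cultures received 100 ng/ml LPS for 0.5 h. The RSKi47 cultures had been given 2 µM RSKi47 10 min before LPS, so they were exposed to the inhibitor for 40 min, and the WT cultures had no pretreatment. The same arms without LPS gave 4 libraries after 10 min of RSKi47 and 6 untreated WT libraries, which share no library with those at 0.5 h. BMDMs were grown from femoral marrow in L-cell conditioned medium and kept overnight in low serum before stimulation.

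The labels place the RSKi47 libraries in an RSKi47 experiment and the WT libraries in a TPL-2 experiment, so the inhibitor and the experiment cannot be told apart. No library of LPS-stimulated cells given solvent alone was analysed here, nor one of cells given RSKi47 for 40 min without LPS. The study's methods call the libraries biological replicates and the labels do not say whether they came from separate mice. The p-values thus measure the spread between libraries of a group, estimated for each gene over all 119 libraries of the series. Each value is a normalized expression value per gene and library on a logarithmic scale, in a deposited table that runs from -2.4 to 19.81. The base of the logarithm is not stated with the deposited values, and values and differences are given as log2 on the assumption that it is 2. The paper's figures show RNA-seq values as log2, without saying that they are the deposited ones. The depth of each library is unknown, because the table holds no counts and the study's methods give only a typical yield of reads. In bulk RNA, fewer cells of a type and less RNA per cell cannot be told apart.

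LPS binds TLR4 with its coreceptors CD14 and MD-2, and within minutes IKK frees the kinase TPL-2 from NF-κB1 p105. TPL-2 phosphorylates MKK, MKK activates ERK, and ERK phosphorylates both transcription factors such as the ternary complex factors and further kinases, among them the RSKs and the MSKs. RSKs phosphorylate targets such as CREB, c-FOS, and ribosomal protein S6 and feed back on the ERK pathway, while MSKs phosphorylate CREB and histone H3. In macrophages these kinases are known for their part in the rapid transcription of immediate early genes, dual-specificity phosphatases, and cytokines such as IL-10.

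At 0.5 h of LPS the RSKi47 libraries had less *Il10*, *Dusp6*, *Ccl2*, and *Ccl7* and more *Adamts1* and *Flrt3* than WT libraries, each by over 1 in log2. *Tnf* lay within the WT range, and *Egr1* lay within it only through 1 WT library. Lower means less mRNA in RSKi47 than in WT libraries throughout, and a difference is the mean of the RSKi47 libraries minus the mean of the WT libraries in log2 units. WT values are given as the lowest, median, and highest of the 6 libraries, or as a range, and RSKi47 values in the order of replicates 1 to 3. The 12 LPS-raised genes that were lower against every set of WT libraries used included *Fos*, *Myc*, *Ier3*, *Cxcl1*, and *Cxcl3*, and they were 11.2% of the 107 such genes against 15.5% among all genes tested. Interferon-stimulated genes were higher, 22 of 25 at 0.5 h, and so were 6 of 7 dendritic cell markers, of which 3 rose when WT replicates 4 to 6 alone were used. Cytosolic ribosomal protein genes were slightly lower, 70 of 81, and once the dependence on transcript length was removed 32 were lower and 7 higher. Most genes that differed from WT by over 1 at 0.5 h had moved in the same direction without LPS.

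The promoters of 3 of the LPS-raised genes that were lower are shown because they carry sequences that factors of these pathways are known to bind. They are the 250 bases before the RefSeq start site on GRCm38.p6, from 5′ to 3′ on the gene's strand, credited to RefSeq. Capitals mark TGACG or its reverse complement CGTCA, the core of the CREB site, and GGAATTTCC, a κB sequence.
*Fos*, chr12:85473640-85473889, plus strand: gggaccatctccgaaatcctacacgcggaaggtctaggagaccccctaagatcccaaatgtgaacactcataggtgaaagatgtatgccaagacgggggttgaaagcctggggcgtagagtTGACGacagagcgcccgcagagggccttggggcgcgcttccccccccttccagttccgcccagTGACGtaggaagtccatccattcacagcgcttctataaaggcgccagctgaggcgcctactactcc
*Cxcl1*, chr5:90890995-90891244, plus strand: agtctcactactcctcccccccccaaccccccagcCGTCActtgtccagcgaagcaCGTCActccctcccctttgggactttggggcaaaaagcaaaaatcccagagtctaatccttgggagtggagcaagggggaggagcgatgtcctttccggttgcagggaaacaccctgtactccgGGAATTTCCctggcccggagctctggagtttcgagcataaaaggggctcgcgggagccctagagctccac
*Cxcl3*, chr5:90785851-90786100, plus strand: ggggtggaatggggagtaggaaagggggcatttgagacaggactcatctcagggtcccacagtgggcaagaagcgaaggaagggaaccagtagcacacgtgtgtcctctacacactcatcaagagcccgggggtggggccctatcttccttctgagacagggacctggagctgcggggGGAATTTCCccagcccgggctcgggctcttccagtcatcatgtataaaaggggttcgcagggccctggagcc

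In *Fos* the TGACG matches lay 129 to 125 and 66 to 62 bases before the start. *Cxcl1* had CGTCA at 215 to 211 and 194 to 190 bases and GGAATTTCC at 70 to 62 bases before the start. *Cxcl3* had GGAATTTCC at 72 to 64 bases and no TGACG. *Dusp6* had GGAAATTCC, the reverse complement of the κB sequence, at 154 to 146 bases before the start, and the window of *Tnf* held none of the sequences searched. The window of *Fosb* is not described, because its RefSeq start lies inside the gene at the position given below. The search also covered TGANTCA for AP-1 and the CArG box, on both strands of windows of 300 bases that reach 50 bases past the start. Among 32851 promoter windows of that length, 20.8% held TGACG, 7.81% TGANTCA, 1.63% a CArG box, and 0.317% GGAATTTCC. The CArG box and TGANTCA were in none of the windows of these genes, and bases farther upstream were not searched. The letters searched were chosen after these promoters had been looked at, and a match is a description that shows no binding.

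Across all genes, RSKi47 libraries differed from WT at 0.5 h by small amounts in many genes. Of 11971 genes tested by limma, 46 were lower (0.384%) and 109 higher (0.911%) by at least 1 in log2 with an adjusted p below 0.05, and such genes are termed called. At an adjusted p below 0.05 alone, 2937 genes were lower (24.5%) and 2838 higher (23.7%), and fell and rose are used below for these. Counts of genes that fell or rose in a list at 0.5 h are to be read beside these shares. The 2 groups of libraries did not overlap for 43 of the 46 and 104 of the 109 called genes, and among all genes tested 21.3% were lower and 21.2% higher without overlap. Of the called genes, 27 lower and 67 higher ones lay outside every other library at 0.5 h, which included 22 libraries of other mutants and of PD0325901-treated cells, and among all genes tested 7.59% lay below and 8.90% above every other library.

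The difference was largely present in the libraries without LPS. There, 42 genes were called lower (0.351%) and 119 higher (0.994%), and 3145 fell (26.3%) and 3205 rose (26.8%) at the adjusted p alone. Of the 46 genes called lower at 0.5 h, 28 were also called lower without LPS (60.9% of the 46 and 66.7% of the 42), 39 fell there, and 7 did not move. Of the 109 called higher, 84 were also called higher without LPS (77.1% of the 109 and 70.6% of the 119), 104 rose, and 5 did not move. None moved the opposite way. Over the 11971 genes the differences at the 2 times had a Pearson correlation of 0.914 and a Spearman correlation of 0.904. These are given as a description, since any difference between the experiments of the arms enters both times and genes are not independent.

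The part of the 0.5 h difference that was not there without LPS was tested as a contrast, the LPS response in RSKi47 cells minus that in WT cells. In limma 1 gene was called lower (0.00835%), 3 were lower at an adjusted p below 0.05 (0.0251%), and 0 were higher by either rule. At an unadjusted p below 0.05, 451 of the 11971 genes passed, 310 lower and 141 higher. That is a smaller share than the 0.05 the threshold itself would give if no gene differed. The 3 genes were *Mir6236*, which was listed here with non-coding and ribosomal RNA, *Rsc1a1*, and *Fosb*. Of these, *Rsc1a1* lies outside the rule for named genes and was chosen after its values were seen. Within each arm the replicate numbers were taken to tie a 0.5 h library to one without LPS, which the values bore out only in part. With the number as a random block 24 genes were lower and 5 higher at an adjusted p below 0.05 (5 and 1 called). With the number as a fixed block, in RSKi47 replicates 1 to 3 and WT replicates 4 to 9, 6 were lower and 3 higher (1 and 0 called). The balance turned with the WT libraries used, with 3 lower and 18 higher at the adjusted p against WT replicates 4 to 6 alone and 31 lower and 5 higher against WT replicates 7 to 9 alone.

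**Figure D1:**
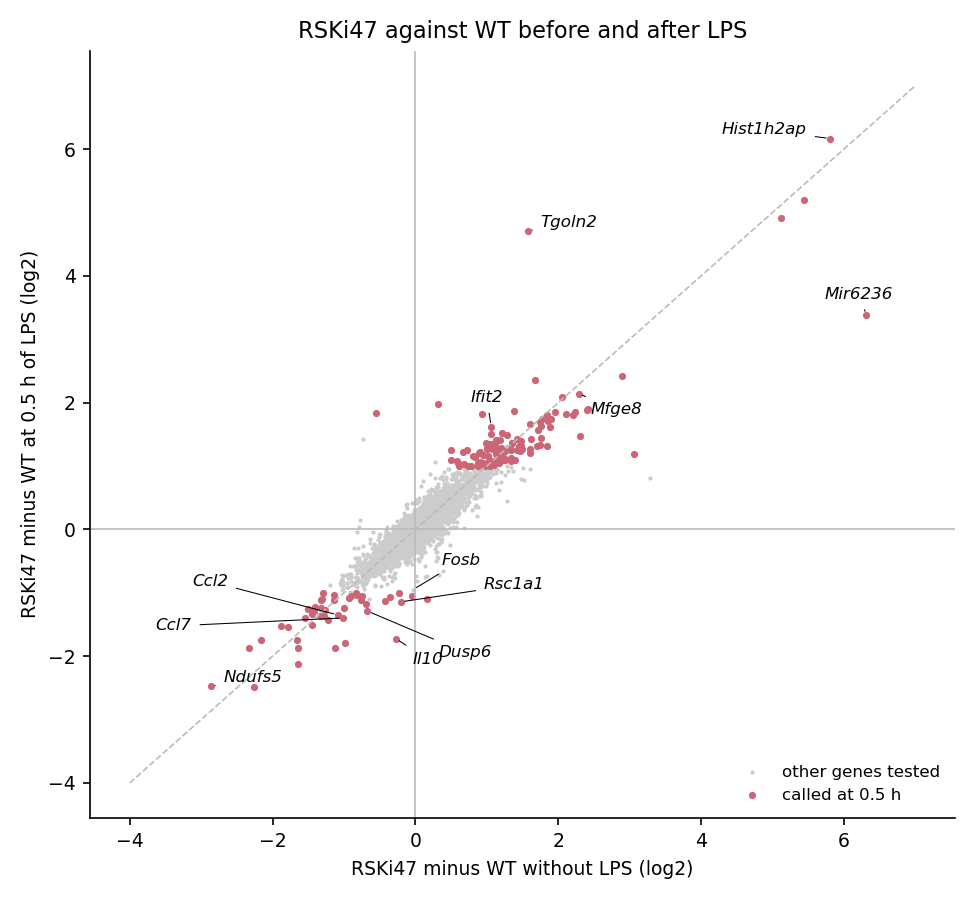
Log2 difference between RSKi47 and WT libraries for each of the 11971 genes tested, without LPS on the x axis and at 0.5 h of LPS on the y axis, with the genes called at 0.5 h in red and a dashed line where both are equal. Most called genes lie near the line, and *Il10*, *Rsc1a1*, and *Fosb* lie well below it.

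*Il10* encodes the anti-inflammatory cytokine IL-10 (chr1:131019845-131024970). At 0.5 h its level in WT libraries had a lowest value of 8.82, a median of 8.90, and a highest value of 9.49, and in RSKi47 libraries it was 7.30, 7.36, and 7.36. Every RSKi47 library was below every WT library and below every other library at 0.5 h. The difference was -1.72 (SE 0.24, limma adjusted p = 2.88e-09), and without LPS, where WT libraries lay at 6.08 to 6.72 and RSKi47 libraries at 5.94 to 6.18, it was -0.28 (limma adjusted p = 0.287). LPS raised *Il10* by 2.71 in WT and by 1.26 in RSKi47 cells. The difference between these responses was -1.44 (95% interval -2.09 to -0.80), with a limma adjusted p of 0.0517 without a block, 0.00222 with the fixed and 3.16e-04 with the random replicate block, 0.273 against WT replicates 4 to 6 alone, and 0.188 without RSKi47 replicate 1 at 0.5 h. In cells given the MKK inhibitor PD0325901 at 0.1 µM, *Il10* differed from the same WT libraries by -0.66, and RSKi47 was lower than PD0325901 by -1.06 (limma adjusted p = 1.14e-04).

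*Dusp6* encodes a phosphatase that inactivates ERK in the cytoplasm (chr10:99263231-99267489). Its lowest, median, and highest values in WT libraries at 0.5 h were 10.12, 10.21, and 10.26, against 8.91, 9.01, and 8.77 in RSKi47 libraries. The groups were far apart, with a difference of -1.29 (SE 0.10, limma adjusted p = 6.46e-19). Without LPS *Dusp6* was already lower, by -0.67. LPS raised *Dusp6* by 0.26 in WT cells, and the LPS difference in RSKi47 cells was -0.36. The contrast of these responses was -0.62 (95% interval -0.90 to -0.34), with a limma adjusted p of 0.0564 without a block, 0.00998 with the fixed and 3.16e-04 with the random replicate block, 0.372 against WT replicates 7 to 9 alone, and 0.308 without RSKi47 replicate 3 at 0.5 h. In PD0325901-treated cells the difference from WT was -0.79, and RSKi47 minus PD0325901 was -0.50 (limma adjusted p = 4.17e-05).

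*Cxcl1* (chr5:90891245-90893121) and *Cxcl3* (chr5:90786101-90788093) encode chemokines that draw neutrophils. *Cxcl1* had a lowest value of 11.63, a median of 12.05, and a highest value of 12.49 in WT libraries at 0.5 h, and 11.27, 11.45, and 11.27 in RSKi47 libraries. *Cxcl3* had 5.16, 5.50, and 5.71 in WT and 4.78, 4.61, and 4.74 in RSKi47 libraries. Both genes were thus lower in every RSKi47 library, by -0.73 (SE 0.13, limma adjusted p = 2.78e-06) for *Cxcl1* and -0.76 (SE 0.15, limma adjusted p = 2.67e-05) for *Cxcl3*. Neither fell without LPS, where the differences were 0.01 and 0.13. LPS raised *Cxcl3* by 1.10 in WT cells and the difference in RSKi47 cells was 0.21. The contrasts of the LPS responses, -0.74 for *Cxcl1* and -0.89 for *Cxcl3*, did not pass the threshold (limma adjusted p = 0.0842 and 0.0643). They passed with the random replicate block (adjusted p = 0.00698 and 0.00818) and not with the fixed one (0.217 and 0.146). Against WT replicates 4 to 6 alone the adjusted p was 0.9995 for both, and against WT replicates 7 to 9 alone 2.31e-04 and 0.00215. The related *Cxcl2* differed by -0.08 and did not move.

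*Ccl2* (chr11:82035577-82037452) and *Ccl7* (chr11:82045712-82047525) encode chemokines for monocytes and are neighbours in the genome. *Ccl2* had 12.08, 12.36, and 12.89 as its lowest, median, and highest value in WT libraries and 11.15, 11.10, and 11.04 in RSKi47 libraries. *Ccl7* had 10.92, 11.20, and 11.74 in WT and 9.89, 9.95, and 9.81 in RSKi47 libraries. Both were below every other library at 0.5 h, by -1.35 (SE 0.12) and -1.40 (SE 0.14) against WT. Unlike *Cxcl1*, they were lower without LPS as well, by -1.09 and -1.01, and the contrasts of their LPS responses were -0.26 and -0.39 (limma adjusted p = 0.9997 for both).

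**Figure D2:**
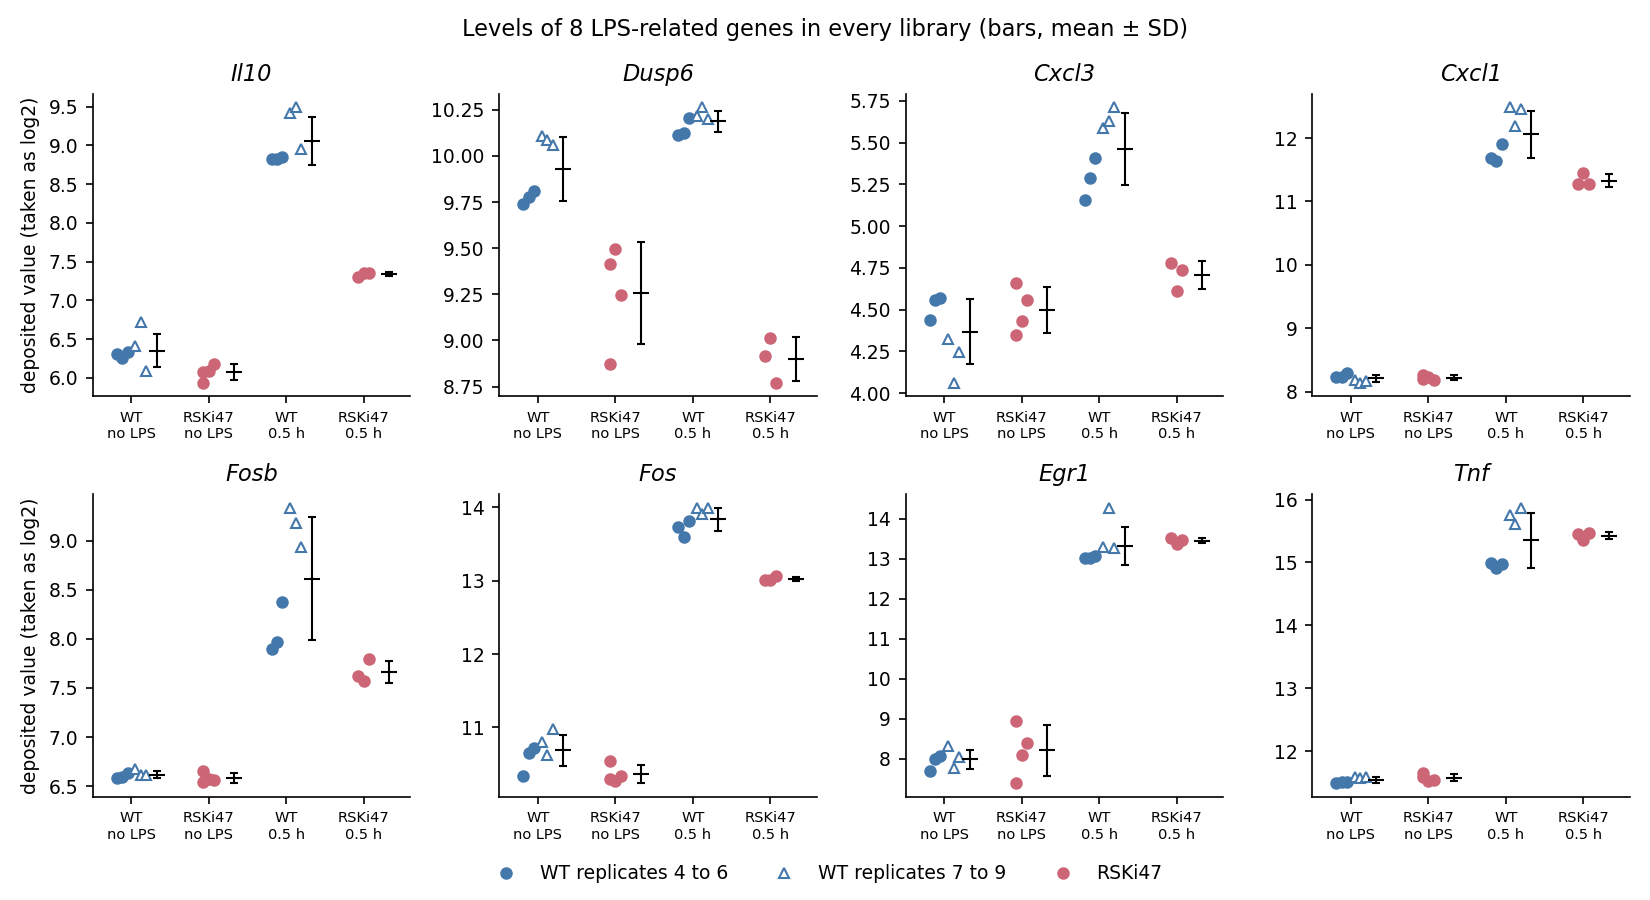
Deposited value, taken as log2, of 8 genes in every library of the 4 groups, with WT replicates 4 to 6 as filled circles, WT replicates 7 to 9 as open triangles, RSKi47 libraries in red, and the mean ± SD as bars. At 0.5 h the RSKi47 libraries lie below all WT libraries for *Il10*, *Dusp6*, *Cxcl3*, *Cxcl1*, *Fosb*, and *Fos*, and within their range for *Tnf*, and for *Egr1* they lie above all WT libraries but replicate 8.

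The kinases themselves did not move. *Rps6ka1*, *Rps6ka3*, and *Rps6ka2*, which encode RSK1, RSK2, and RSK3, differed by 0.04, -0.03, and 0.13 at 0.5 h, and the MSK genes *Rps6ka4* and *Rps6ka5* by -0.06 and 0.09. The median WT values of the 3 RSK genes were 11.22, 12.15, and 10.25. *Rps6ka6*, which encodes RSK4, lay at -2.19 to -2.18 in all 9 libraries and was not tested. Since RSKi47 acts on the kinases' activity, these mRNA levels do not check the treatment. With the dependence on transcript length removed, a setting chosen after seeing the data, *Rps6ka3* was lower by -0.19 (limma adjusted p = 0.00796). Of 12 genes of the ERK cascade, 4 fell and 3 rose, led by *Braf*, which encodes a kinase upstream of MKK, at 0.52. *Map3k8*, which encodes TPL-2, rose by 0.23, and its difference against WT replicates 7 to 9 alone was 0.17 (limma adjusted p = 0.127). Of 19 genes of TLR4 signaling, 5 fell and 6 rose, beside 24.5% and 23.7% of all genes tested. The coreceptor gene *Cd14* had the largest fall, at -0.49 (-0.39 without LPS).

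Of 26 immediate early transcription factor genes tested, 7 fell and 2 rose at 0.5 h, beside 24.5% and 23.7% of all genes tested. *Fos* (chr12:85473890-85477274), which encodes a subunit of AP-1, had 13.59, 13.86, and 13.99 as its lowest, median, and highest value in WT libraries and 13.01, 13.01, and 13.06 in RSKi47 libraries. The groups did not overlap, with a difference of -0.81 (SE 0.13, limma adjusted p = 1.85e-07), and *Fos* was lower by -0.33 without LPS. *Fosb* (chr7:19302696-19310118), its relative, had 7.89, 8.65, and 9.34 in WT and 7.62, 7.57, and 7.79 in RSKi47 libraries, a difference of -0.95 (SE 0.14, limma adjusted p = 1.95e-08) against -0.04 without LPS. LPS raised *Fosb* by 2.00 in WT and 1.08 in RSKi47 cells. The contrast of these responses was -0.92 (limma adjusted p = 0.0239), but it did not pass with the fixed replicate block (adjusted p = 0.266), with the 4 RSKi47 and WT groups alone (0.914), against WT replicates 4 to 6 alone (0.9995), or without RSKi47 replicate 1 or 2 or WT replicate 7, 8, or 9 at 0.5 h (adjusted p from 0.0506 to 0.182).

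The other immediate early genes that fell were *Nr4a1* (-0.87), a nuclear receptor gene, *Myc* (-0.59), *Ier3* (-0.53), *Fosl1* (-0.50), and *Srf* (-0.20). *Klf10* (0.32) and *Mcl1* (0.24) rose. *Srf* (-0.12) and *Klf10* (0.15) did not pass against WT replicates 4 to 6 alone, nor did *Nr4a1* and *Fosl1*, whose values against each set are given below. *Myc* had 10.48, 10.72, and 11.04 in WT and 10.26, 10.05, and 10.14 in RSKi47 libraries and was below every other library at 0.5 h. *Egr1*, a target of the ternary complex factors, had 13.02, 13.17, and 14.27 in WT and 13.51, 13.38, and 13.47 in RSKi47 libraries. All 3 RSKi47 libraries lay above 5 of the 6 WT libraries, which reached 13.28, and below WT replicate 8. The difference was 0.13 (SE 0.18, limma adjusted p = 0.565), and without WT replicate 8 it was 0.32 (adjusted p = 0.103). It was 0.42 against WT replicates 4 to 6 and -0.16 against WT replicates 7 to 9, and neither passed. With all libraries the contrast of its LPS responses was -0.09 (95% interval -0.57 to 0.38). *Egr3* differed by -0.26 and *Fosl2* by 0.05, and neither passed the test. With the random replicate block *Egr3* was lower by -0.37 (limma adjusted p = 0.0427), and it differed by 0.15 against WT replicates 4 to 6 (0.485) and by -0.66 against WT replicates 7 to 9 (0.00128).

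The other arms at 0.5 h were set against the same WT libraries, so their values are given side by side and not compared as a whole. *Egr1* differed from WT by -4.48 with PD0325901, -4.41 in *Map3k8*D270A cells, which lack TPL-2 kinase activity, -4.45 in *Elk1*-/-*Elk4*-/- cells, which lack a pair of ternary complex factors, and -2.56 in *Nfkb1*SSAA cells, in which IKK cannot phosphorylate p105. RSKi47 libraries were 4.61 above PD0325901 libraries (limma adjusted p = 1.51e-41), a test that shares no WT library but sets 2 experiments against each other. *Fos* was also higher with RSKi47 than with PD0325901, which differed from WT by -1.35 (RSKi47 minus PD0325901 0.53, limma adjusted p = 4.06e-04). The same held for *Fosb* (PD0325901 minus WT -1.95, RSKi47 minus PD0325901 1.00) and *Nr4a1* (-1.74 and 0.87). *Myc* went the other way, with 0.09 for PD0325901 against WT and -0.67 for RSKi47 against PD0325901.

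Of 17 feedback inhibitors of ERK signaling tested, 5 fell and 4 rose, beside 24.5% and 23.7% of all genes tested. After *Dusp6*, the falls were of *Dusp5* (-0.54), which encodes the nuclear ERK phosphatase, *Errfi1* (-0.43), *Spry2* (-0.39), and *Dusp1* (-0.28). *Dusp5* (0.10), *Errfi1* (0.26), and *Dusp1* (0.01) did not fall against WT replicates 4 to 6 alone. *Dusp8* (0.78), *Dusp4* (0.43), *Dusp10* (0.42), and *Dusp16* (0.29) rose. *Dusp8* and *Dusp16* encode phosphatases that act mainly on JNK and p38. *Dusp8* had 7.78, 8.14, and 8.64 in WT and 9.06, 8.75, and 9.04 in RSKi47 libraries, without overlap.

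Of 16 CREB targets, 6 fell and 4 rose, beside 24.5% and 23.7% of all genes tested. Besides *Fosb*, *Nr4a1*, and *Dusp1*, these falls were of *Rgs2* (-0.73), which encodes a regulator of G protein signaling, *Ptgs2* (-0.50), which encodes COX-2, and *Crem* (-0.43). *Ptgs2* did not fall against WT replicates 4 to 6 alone (0.11). *Sik1* (0.90), *Per2* (0.86), *Pde4d* (0.69), and *Per1* (0.46) rose. *Rgs2* had 12.71, 12.75, and 12.78 in WT libraries and 12.01, 12.01, and 12.04 in RSKi47 libraries. *Sik1*, which encodes a kinase that restrains CREB coactivators, had 7.56, 7.94, and 8.22 in WT and 8.82, 8.85, and 8.74 in RSKi47 libraries. The groups did not overlap for either gene, and both differed in the same direction without LPS (-0.55 and 0.58).

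Of 16 cytokine genes tested, 3 fell (*Il10*, *Il1b*, and *Lif*) and *Clcf1* rose, by 1.36. *Tnf* had 14.90, 15.30, and 15.87 in WT and 15.46, 15.36, and 15.46 in RSKi47 libraries, a difference of 0.07 (SE 0.10, limma adjusted p = 0.560), and the 95% interval of the contrast of its LPS responses was -0.23 to 0.30. *Ifnb1* differed by 0.60 (limma adjusted p = 0.0921). Of 12 chemokine genes, 5 fell and 4 rose, the latter being *Ccl5* (0.90), *Cxcl10* (0.85), *Ccl22* (0.44), and *Cxcl16* (0.30). Of 18 genes of NF-κB subunits and their feedback inhibitors, 4 fell and 5 rose, beside 24.5% and 23.7% of all genes tested. Those that moved had differences from -0.30 (*Tnip3*) to 0.33 (*Rel*). *Nfkbia*, which encodes IκBα, fell by 0.21 on the log2 scale. Against WT replicates 4 to 6 alone *Nfkbia* (0.03), *Tnip3* (0.05), and *Lif* did not move, and *Rel* (0.04) did not move against WT replicates 7 to 9 alone. *Ccl22* passed against neither set alone.

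The WT libraries at 0.5 h were not uniform in the genes LPS raises. A set of 107 genes was raised at least 2-fold by LPS at 0.5 h in *Map3k8*D270A, *Elk1*-/-*Elk4*-/-, or *Nfkb1*SSAA cells, none of which enter the comparison. For 85 of these 107 genes all of WT replicates 7 to 9 lay above all of WT replicates 4 to 6 at 0.5 h, and for 1 gene below. Among all genes tested 19.8% lay above and 20.6% below in this way. Without LPS this was so for 15 and 24 of the 107 genes (17.2% and 19.5% of all genes). The median difference between the 2 sets of WT replicates was 0.51 at 0.5 h and -0.07 without LPS. The labels give no batch, date, or litter that would separate them. The RSKi47 mean lay between the means of both sets for 55 of the 107 genes, below both for 24, and above both for 28.

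Against all 6 WT libraries, 27 of the 107 LPS-raised genes fell and 22 rose, with a median difference of 0.02, beside -0.01 over all genes tested. Against WT replicates 4 to 6 alone, 12 fell and 50 rose (median 0.26), and against WT replicates 7 to 9 alone, 56 fell and 8 rose (median -0.28). For 19 of the 107 (17.8%) the call turned from higher to lower between both sets of WT libraries, whereas 27 of all genes tested (0.226%) had opposite calls. *Tnf* was 0.47 above WT replicates 4 to 6 and its difference was -0.32 against WT replicates 7 to 9 (limma adjusted p = 1.54e-06 and 8.94e-04). *Il1a* (1.15 and -0.45), *Tnfaip3* (0.48 and -0.56), and *Cxcl2* (0.28 and -0.43) did likewise. *Il1b* had 11.11, 11.89, and 12.76 in WT and 11.09, 10.99, and 11.21 in RSKi47 libraries. Its difference was -0.13 (adjusted p = 0.431) against WT replicates 4 to 6 and -1.49 against WT replicates 7 to 9. *Nr4a1* (-0.40 and -1.34) and *Fosl1* (-0.18 and -0.83) passed against WT replicates 7 to 9 and not against WT replicates 4 to 6.

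Against both sets of WT libraries, 12 LPS-raised genes fell (11.2%) and 8 rose (7.48%), and over all genes tested 15.5% fell and 14.3% rose against both. The 12 were *Bmp2*, *Ccl2*, *Ccl7*, *Cd14*, *Cxcl1*, *Cxcl3*, *Fos*, *Ier3*, *Il10*, *Myc*, *Sox7*, and *Zfp36l1*. *Il10* was -1.49 and -1.95 against WT replicates 4 to 6 and 7 to 9, *Fos* -0.69 and -0.94, *Ier3* -0.51 and -0.56, and *Cxcl1* -0.41 and -1.05. *Zfp36l1*, which encodes a protein that destabilizes AU-rich mRNAs, was -0.46 and -0.43. The 8 that rose were *Adamts1*, *Ccrl2*, *Cxcl10*, *Dusp4*, *Dusp8*, *Flrt3*, *Irf1*, and *Sgk1*. *Adamts1*, which encodes a secreted metalloprotease, was 1.66 and 2.08 higher, and *Irf1* 0.97 and 0.37. Over all genes tested, 23.7% fell and 22.3% rose against WT replicates 4 to 6, and 21.8% fell and 21.0% rose against WT replicates 7 to 9. By list, 4 immediate early genes fell and 7 rose against WT replicates 4 to 6, and 11 fell and 2 rose against WT replicates 7 to 9. For ERK feedback inhibitors the counts were 3 and 6 against the former and 9 and 4 against the latter, and for NF-κB genes 0 and 8 against 7 and 2. For CREB targets they were 3 and 7 against WT replicates 4 to 6 and 8 and 4 against WT replicates 7 to 9, and for cytokine genes 1 and 4 against 8 and 1.

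**Figure D3:**
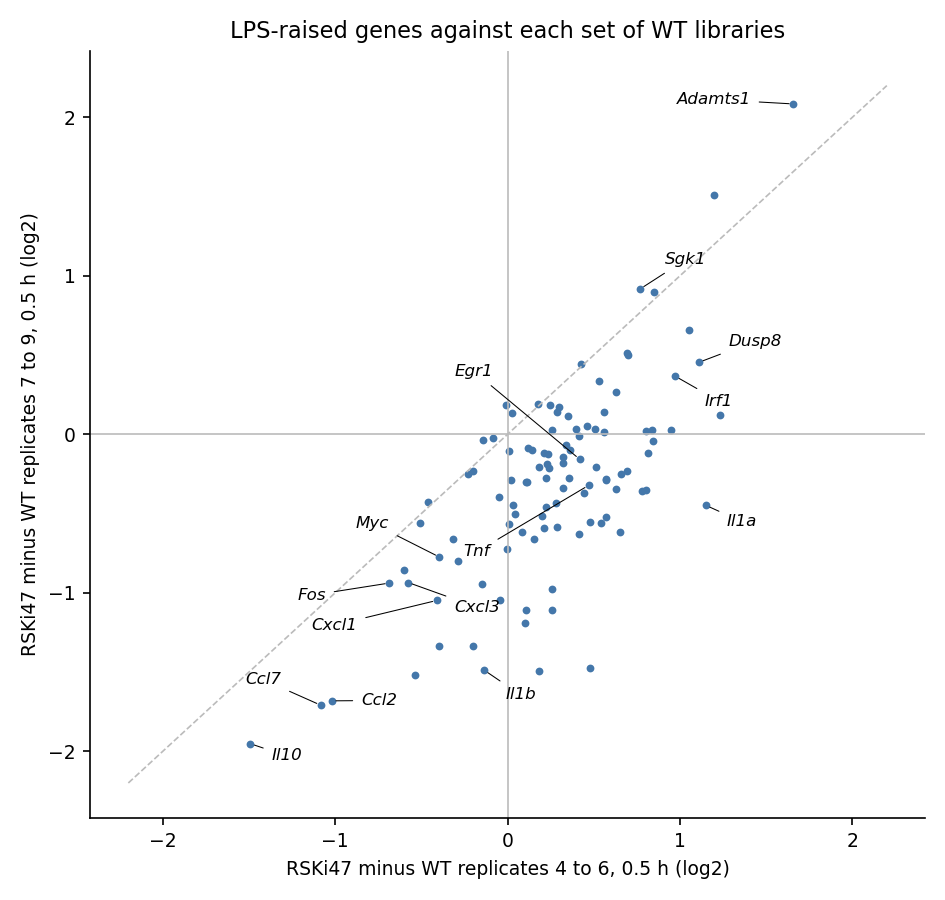
Log2 difference at 0.5 h of each of the 107 LPS-raised genes between RSKi47 libraries and WT replicates 4 to 6 on the x axis and WT replicates 7 to 9 on the y axis, with a dashed line where both are equal. Most points lie below the line, with medians of 0.26 and -0.28, and *Il10*, *Ccl2*, *Ccl7*, *Fos*, and *Cxcl3* lie to the lower left whichever WT libraries were used.

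Interferon-stimulated genes, which type I interferon induces through its receptor and JAK kinases, were higher in RSKi47 libraries. Of 25 tested, 22 rose and 0 fell at 0.5 h, with a median difference of 0.86, and the others were *Bst2* (0.09), *Oas2* (0.25), and *Mx1* (0.66). *Ifit2* led with 11.21, 11.38, and 11.83 in WT and 12.87, 13.07, and 13.23 in RSKi47 libraries, a difference of 1.62 (SE 0.34, limma adjusted p = 4.59e-05), followed by *Oas3* (1.36), *Ifit3* (1.26), and *Gbp2* (1.22). Without LPS 15 of the 25 rose and 0 fell, with a median of 0.58. The contrast of LPS responses was above 0 for 24 of the 25, and none passed even an unadjusted p of 0.05. The level of the list summed on the linear scale and given in log2 was 15.24 to 15.68 in WT and 16.18 to 16.39 in RSKi47 libraries at 0.5 h. It was 16.24 to 16.50 in *Elk1*-/-*Elk4*-/- cells at 0.5 h and 16.24 to 16.31 in cells given the solvent DMSO for 10 min without LPS in the PD0325901 experiment. The lowest of the 4 RSKi47 libraries without LPS was at 15.29, within the WT range without LPS of 15.22 to 15.67. Replicate 4 of these had the lowest *Ifit2*, at 11.46 against 12.82 to 13.18 in the other 3, and stood farthest from its group over all genes, at a root mean square distance of 0.23 to 0.25 from the other 3.

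Genes of antigen presentation on MHC class II were higher as well. Of 7 dendritic cell markers tested, 6 rose, among them *H2-Aa* (1.49), *H2-Ab1* (1.35), *Cd74* (1.27), and *Ciita* (1.06), which encodes the class II transactivator. *H2-Aa* had 8.80, 9.44, and 10.37 in WT and 10.82, 11.03, and 11.12 in RSKi47 libraries. Against WT replicates 4 to 6 alone, 3 of the 7 rose, and *Ciita* (0.50) and *H2-Ab1* (0.75) did not pass. *Zbtb46*, a marker of classical dendritic cells, differed by 0.04. The summed level of the markers was 11.90 to 13.40 in WT and 13.75 to 14.01 in RSKi47 libraries at 0.5 h, and 13.28 to 13.95 in RSKi47 libraries without LPS. These markers are also known in activated macrophages.

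Markers of other cells the cultures could hold were checked beside these. Of 16 macrophage markers 6 fell and 5 rose, and the leading ones were high in both groups, with *Lyz2* at 17.85 to 18.12 in WT and 18.08 to 18.23 in RSKi47 libraries and *Csf1r*, the M-CSF receptor gene, 0.27 higher. *Mrc1* (-0.52), *C1qa* (-0.41), and *C1qb* (-0.42) fell. Of 10 neutrophil markers tested, 6 rose, led by *Ngp* (1.24), and *Mmp9*, which macrophages also express, fell (-1.09). Against WT replicates 4 to 6 alone 7 rose, and against WT replicates 7 to 9 alone 1 rose and 1 fell. The summed neutrophil level was 9.41 to 10.35 in WT and 10.23 to 10.50 in RSKi47 libraries, and 10.31 to 10.52 with PD0325901. The fibroblast genes *Col1a1* and *Col1a2* were 1.18 and 1.47 higher, at 3.43 to 4.11 and 4.23 to 5.05 in RSKi47 libraries, and 3.06 and 2.30 higher without LPS, where replicate 4 had 9.03 for *Col1a1*. Of 7 B cell markers only *Cd79b* passed the filter on low values (-0.57), and of 6 mast cell and basophil markers none did. The part of these cells in the differences was not tested.

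**Figure D4:**
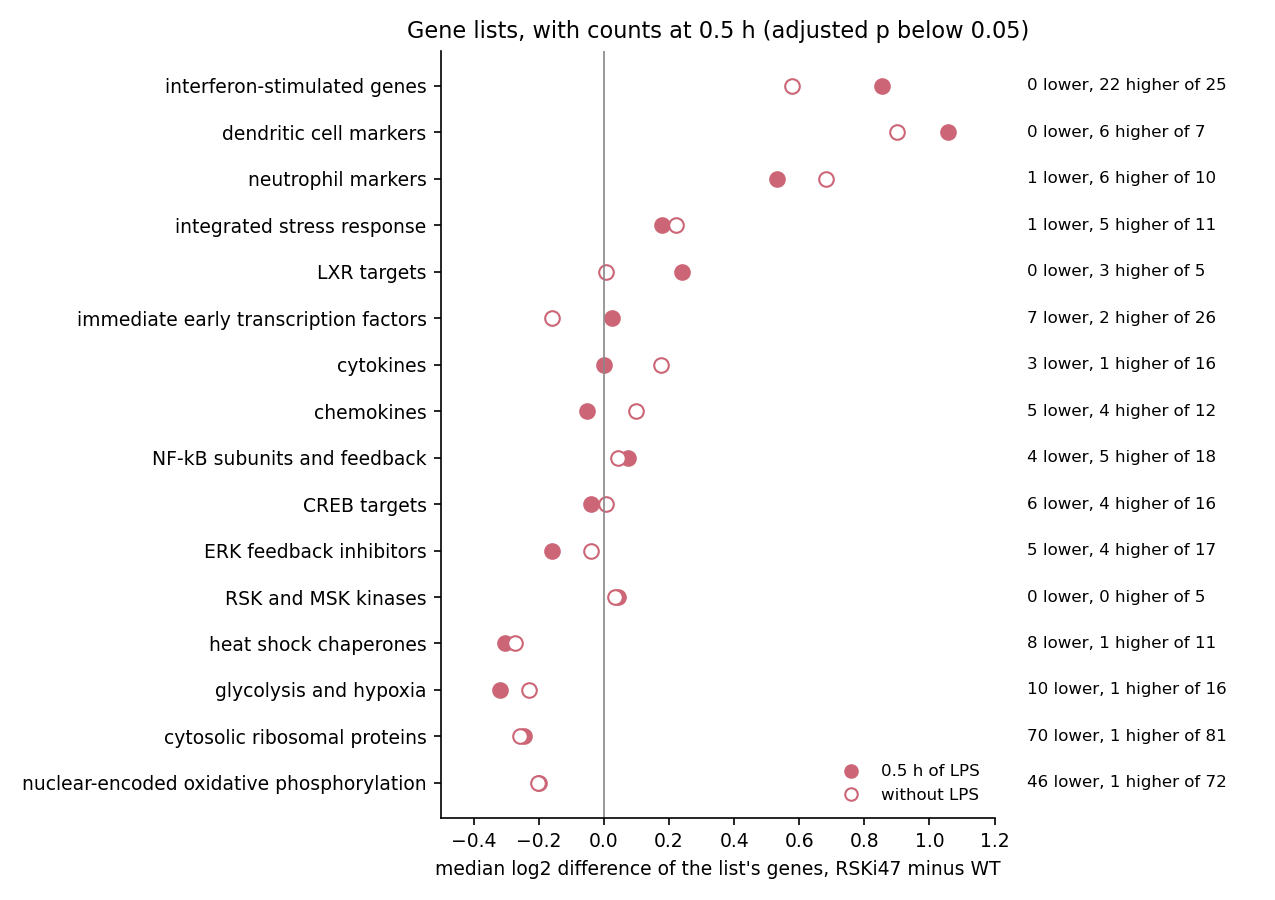
Median log2 difference between RSKi47 and WT libraries for 16 gene lists, at 0.5 h of LPS (filled) and without LPS (open), with the counts that fell and rose at 0.5 h on the right. Of the lists drawn, the dendritic cell and interferon-stimulated lists lie highest at 0.5 h, at 1.06 and 0.86, and the heat shock, glycolysis, ribosomal protein, and oxidative phosphorylation lists lie below 0 in both.

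Cytosolic ribosomal protein genes, which encode the proteins of the ribosome, were slightly and widely lower. Of 81 tested, 70 fell and 1 rose at 0.5 h, with a median of -0.24, and 74 fell and 0 rose without LPS. Of 72 nuclear genes of oxidative phosphorylation, 46 fell and 1 rose, with a median of -0.20. The differences followed transcript length over all genes. In 11579 genes with a known length the Spearman correlation of the 0.5 h difference with the length of the longest transcript was 0.396, and 0.419 without LPS, given as a description. The median difference was -0.21 for 496 genes with transcripts under 1 kb, -0.13 from 1 to 2 kb, -0.02 from 2 to 4 kb, 0.08 from 4 to 8 kb, and 0.20 over 8 kb. The median length was 1049 bases in the ribosomal list and 1001 bases in the oxidative phosphorylation list. With the dependence on length removed from each library, a setting chosen after seeing the data, 32 ribosomal protein genes fell and 7 rose (median -0.07), and 22 genes of oxidative phosphorylation fell and 12 rose. In that setting 22.1% of 11579 genes fell and 21.7% rose. The contrast of LPS responses had a Spearman correlation of -0.0886 with length.

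**Figure D5:**
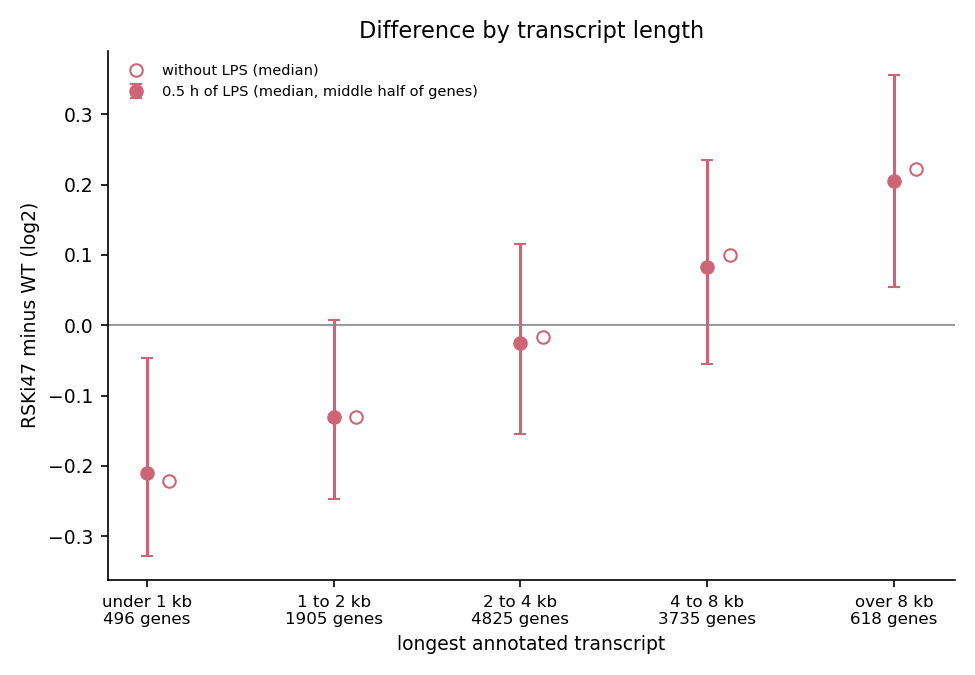
Log2 difference between RSKi47 and WT libraries by length of the longest annotated transcript, in 5 classes, with the median and interquartile range at 0.5 h (filled, bars) and the median without LPS (open). The medians rise from -0.21 under 1 kb to 0.20 over 8 kb and are nearly the same without LPS.

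Genes of glycolysis and the hypoxia response and heat shock chaperones were also lower. Of 16 glycolysis and hypoxia genes 10 fell and *Hk2*, which encodes a hexokinase, rose by 0.56. *Ankrd37* (-1.01), *Vegfa* (-0.91), *Eno1* (-0.90), and *Pgk1* (-0.55) led the falls, and 9 fell and 1 rose with length removed. *Eno1* had 12.65, 13.06, and 13.11 in WT and 11.78, 12.25, and 12.20 in RSKi47 libraries. Of 11 heat shock genes 8 fell, among them *Hspa1b* (-0.77) and *Hspa8* (-0.30), and *Bag3* rose (0.45). *Hspa1b* did not pass against WT replicates 4 to 6 alone (-0.20). *Slc7a11*, the cystine transporter gene, was the largest of 3 rises among 14 NRF2 antioxidant genes, at 1.32, and *Abcg1*, a sterol exporter gene, of 3 among 5 LXR targets, at 0.68. Of 19 genes of translation control and mTORC1 signaling, 4 fell and 8 rose, with *Sesn1* (-0.55) and *Deptor* (0.57) at the ends. Of 12 SRF targets of the cytoskeleton, 5 fell and 5 rose, with *Actb* at 0.59 and *Tpm2* at -0.42. Each of these named genes except *Hspa1b* differed in the same direction at an adjusted p below 0.05 without LPS.

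The 10 largest called differences in each direction whose groups did not overlap were mostly outside the LPS response. Among the lower ones, *Ndufs5*, a subunit of respiratory complex I, had 8.43 to 8.94 in WT and 6.02, 6.49, and 6.00 in RSKi47 libraries (-2.48, SE 0.17), and the 4 RSKi47 libraries without LPS lay at 6.00 to 6.07. *Rpl26* (-1.87), a ribosomal protein gene, lay at 5.48, 6.13, and 5.46 in RSKi47 libraries and at 5.46 to 5.53 without LPS, and *Pira7* (-2.49) at 5.54 to 5.57 and 5.54 to 5.61. *Rpl34*, of the large ribosomal subunit, had 8.90 to 9.23 in WT and 7.14, 7.24, and 7.41 in RSKi47 libraries (-1.87). *Rpl37rt* (-1.74), *H2-Q8* (-1.80), and *Tmem254c* (-1.87, limma adjusted p = 0.0478, and 0.101 to 0.103 without any 1 of the RSKi47 libraries) have close copies in the genome, as have *Rpl26*, *Rpl34*, *Ndufs5*, and the *Pira* genes, and how the counting split shared reads is uncertain. *Akr1b3*, which encodes aldose reductase, had 8.97 to 9.56 in WT and 7.45, 8.02, and 7.20 in RSKi47 libraries (-1.74). *Cd5l*, a protein secreted by macrophages, had 13.43 to 14.09 in WT and 12.15, 12.21, and 11.94 in RSKi47 libraries (-1.54). *Il10* was the other of the 10.

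Among the higher ones, *Mfge8* (chr7:79133768-79149060), which encodes a bridging protein for the uptake of apoptotic cells, had 10.65 to 11.35 in WT and 12.91, 13.30, and 13.14 in RSKi47 libraries (2.14, SE 0.16). *Mgll*, which encodes monoacylglycerol lipase, had 4.37 to 4.92 in WT and 6.86, 7.50, and 6.70 in RSKi47 libraries (2.41, SE 0.21). *Cspg4*, a cell surface proteoglycan gene, had 6.21 to 7.60 in WT and 8.57, 8.77, and 8.87 in RSKi47 libraries (2.09). *Eef1a2*, an elongation factor gene, had 3.20 to 3.52 in WT and 5.02, 5.50, and 5.35 in RSKi47 libraries (1.91). In these 4 genes the RSKi47 libraries lay above every other library at 0.5 h, and all 4 were called higher without LPS as well.

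The other 6 higher genes are uncertain. *Hist1h2ap* (chr13:21810367-21810918), a histone gene of a family of near-identical copies, had 2.58 to 3.49 in WT and 9.12, 9.07, and 9.03 in RSKi47 libraries (6.16), while 9 of 12 histone genes tested fell. *Gm5643* (5.19) and *Pira4* (4.90) likewise have close copies. *Tgoln2* had 9.77, 4.61, and 3.69 and *Ugt1a6b* 8.56, 4.83, and 5.31 in the RSKi47 libraries, so RSKi47 replicate 1 stood apart in both. *Mir6236* (chr9:110281287-110281409), from the list of non-coding and ribosomal RNA, had 2.33 to 2.99 in WT and 5.33, 6.29, and 6.21 in RSKi47 libraries (3.38). Without LPS it had 7.21, 8.17, 9.80, and 10.89 in the RSKi47 libraries, a difference of 6.31, and the contrast of its LPS responses was -2.94 (95% interval -3.66 to -2.21, limma adjusted p = 3.15e-08). With the fixed replicate block the contrast was -2.31 (adjusted p = 0.0673), and with the 4 RSKi47 and WT groups alone its adjusted p was 0.372.

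Of the called genes, 7 lower and 5 higher ones had not moved without LPS. Apart from *Il10*, the lower ones were *Tmem254c*, *Rsc1a1* (-1.14), *Lars2* (-1.10), *Eif3j2* (-1.06), *F630028O10Rik* (-1.06), and *Pla2g4b* (-1.01). The higher ones were *Tgoln2*, *H2-Q6* (1.98), *H2-L* (1.83), *Pnp2* (1.25), and *Ifi44* (1.09). Among these 12, chosen after their values were seen, the contrast of LPS responses passed the threshold in limma for *Rsc1a1*, and with the fixed replicate block for *Il10* (adjusted p = 0.00222) and not for *Rsc1a1* (0.263). With the 4 RSKi47 and WT groups alone it was again *Il10* (0.0155) and not *Rsc1a1* (0.938). *Rsc1a1* had 9.06 to 9.33 in WT and 6.90, 8.44, and 8.72 in RSKi47 libraries, and without RSKi47 replicate 1 at 0.5 h its contrast went from -0.94 (adjusted p = 0.00604) to -0.38 (adjusted p = 0.9998).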

How the data were processed

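RNA-seq was done on BMDMs in 119 libraries, of which 19 enter the contrasts with WT and RSKi47 at 0 and 0.5 h. The authors made strand-specific libraries, and the submitters' processing notes name STAR 2.5.1b, RSEM 1.2.29, DESeq2 1.10.1, and mm10. The deposited values for 18098 genes are normalized and on a logarithmic scale that was taken as log2. Neither the base nor the transformation is stated in those sources, and differences may be compressed if it was not a plain log2. One table value above 25 was treated as missing. Depth could not be read from the files.

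Genes that reached 10 on the linear scale in 3 or more libraries (11971) were fitted in limma 3.58.1 (R 4.3.3) over all 119 libraries, without an intensity trend, with 94 residual degrees of freedom and Benjamini-Hochberg adjustment over all genes tested. The test was tested on simulated data first. Contrasts were RSKi47 against WT at 0.5 h, the same without LPS, and the difference of the LPS responses. Deviations of libraries with the same replicate number at 0 and 0.5 h correlated at 0.18 to 0.30 in RSKi47 and 0.45 to 0.79 in WT cells. WT replicates 4 and 5 did not correlate best with their own number. The numbers were taken as pairing the libraries, so results with a replicate block rest on that assumption. The alternatives were other variance models, filters, normalization and thresholds, leaving out each library, each set of WT replicates, the replicate block, and the removal of transcript length by loess, which was added after seeing the data.

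The members, the gene lists, and the split of the WT replicates were chosen with earlier results of these data known. Named genes were the 10 largest called differences in each direction without overlap, up to 4 examples of each list, 14 genes of the RSK and immediate early response given by name, and genes called in the difference of LPS responses. Further list members were named after their values were seen. Positions are from RefSeq on GRCm38.p6, where 17293 genes matched by symbol and 741 by synonym. Of 9 promoters looked up, 6 matched.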

Additional observations from a re-analysis of the deposited data

Results flagged for a closer look

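In 7 of the groups of 4 to 6 libraries examined over 35 genes (6.67% of the groups), 1 library stood apart by Dixon's test at the 95% level, a rate that chance alone gives in about 5% of groups. For *Egr1* WT replicate 8 at 0.5 h was at 14.27 and the next at 13.28, and for *Cspg4* the same library was at 7.60 and the next at 6.60. For *Gm5643* WT replicate 4 at 0.5 h was at 5.40, the next at 4.58. Without LPS, *Cd5l* in WT replicate 7 was at 14.11 (next 13.74), *Fosl2* in WT replicate 9 at 10.43 (next 10.20), *Fosl2* in RSKi47 replicate 1 at 10.36 (next 10.23), and *Tmem254c* in RSKi47 replicate 4 at 3.97 (next 3.11).

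The response to LPS at 0.5 h differed between RSKi47 and WT cells in limma for *Mir6236* (-2.94), *Rsc1a1* (-0.94), and *Fosb* (-0.92), of 11971 genes tested. None of the 3 passed with the fixed replicate block (adjusted p = 0.0673, 0.263, and 0.266) or with the 4 RSKi47 and WT groups alone (0.372, 0.938, and 0.914).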

How the results depend on the processing

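The experiment coincides with the inhibitor, the depth of each library is unknown, and the base of the deposited logarithm is not stated with the values. At a difference of at least 0.693, the natural logarithm of 2, the lower and higher counts were 127 and 288 at 0.5 h, 123 and 305 without LPS, and 3 lower in the LPS response. At the adjusted p alone they were 2937 and 2838, 3145 and 3205, and 3 lower. Leaving out each library gave 39 to 47 lower and at most 126 higher at 0.5 h, 32 to 47 and at most 134 without LPS, and 1 to 5 and 0 to 1 in the LPS response, where 5 were lower without WT replicate 5 at 0.5 h and 4 without WT replicate 4. At 0.5 h, WT replicates 7 to 9 alone gave 68 lower and 125 higher, and WT replicates 4 to 6 alone 43 and 120. For the LPS response 2 genes were lower with an intensity trend, with no filter, with a linear minimum of 50, with quantile normalization, and with length removed, and 14 with WT replicates 7 to 9 alone. With the replicate block as a random term 5 were lower and 1 higher. The difference of *Tnf* turned from 0.07 to -0.32 with WT replicates 7 to 9 alone. Of 868 values of 46 named genes at 0.5 h, 831 kept direction and side of the threshold, and of 359 for 12 genes in the LPS response 290 did. The causes were not tested.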
